A study of Mus musculus with 18 samples.

Results

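The 9 genes described here encode transcription factors that direct T helper lineages, together with related GATA and RUNX proteins: Tbx21, Eomes, Gata3, Gata1, Rora, Ahr, Runx1, Runx3 and Zbtb7b. They were found among the 50600 genes of an RNA-seq count table by matching the Ensembl identifier, with its version removed, to the gene symbol, and all 9 passed the filter on low counts in both tissues. The table covers FACS-purified Foxp3+ regulatory T cells (Tregs) of 18 C57BL/6 mice, 1 library per mouse. The thymic CD25 KO group held 5 CD25 cKO mice, in which Foxp3-YFP/Cre deletes floxed Il2ra, the gene of the IL-2 receptor chain CD25, and the thymic WT group 5 Foxp3/RFP reporter mice with intact CD25, all 3–4 weeks old. The thymic CD25 KO mice had been "cured" of autoimmunity by an injection of WT splenocytes as neonates, which the reporter mice were not stated to have received, and the groups carried different Foxp3 reporter alleles, so that genotype, allele and cell transfer cannot be told apart there. The splenic CD25 KO group held 4 mice with CD25 flox/Foxp3eGFP-Cre-ERT2/R26Y alleles, and the splenic WT group 4 reporter mice with intact CD25, all of them induced with tamoxifen at 7–10 weeks of age and sampled 10–14 days later. Here Cre is driven by the Foxp3 locus and acts only after tamoxifen. The question was how Tregs that lack IL-2 receptor signaling differ from WT Tregs while developing in the thymus and after they have matured.

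T-bet, encoded by Tbx21, and its relative Eomes direct Th1 and cytotoxic differentiation, GATA-3 directs Th2 differentiation, and RORα acts in Th17 cells. AHR is a ligand-activated factor that T cells use at barrier surfaces, RUNX1 and RUNX3 share the partner CBFβ, and Th-POK, the product of Zbtb7b, opposes RUNX3 in the choice between the CD4 and CD8 lineages. Subsets of Tregs also express these factors and use them to control the matching type of helper response, and IL-2 signals through STAT5 in these cells.

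RefSeq promoters on GRCm38.p6 were found for 8 of the 9 genes, and Ahr had none. The 250 bases before the start are printed for Runx3, which is read from a distal and a proximal promoter and whose counts cannot separate them, and for Tbx21 and Gata1, the factors with the largest splenic rise and fall that passed the test. Capitals mark the letters TGTGGT, a RUNX motif, on either strand.
Runx3 distal, chr4:135120395-135120644, plus strand: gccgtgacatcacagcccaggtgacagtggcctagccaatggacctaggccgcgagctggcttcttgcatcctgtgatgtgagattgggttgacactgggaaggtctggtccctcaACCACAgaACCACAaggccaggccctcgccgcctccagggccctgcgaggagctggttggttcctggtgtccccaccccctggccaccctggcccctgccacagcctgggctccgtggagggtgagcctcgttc
Runx3 proximal, chr4:135152295-135152544, plus strand: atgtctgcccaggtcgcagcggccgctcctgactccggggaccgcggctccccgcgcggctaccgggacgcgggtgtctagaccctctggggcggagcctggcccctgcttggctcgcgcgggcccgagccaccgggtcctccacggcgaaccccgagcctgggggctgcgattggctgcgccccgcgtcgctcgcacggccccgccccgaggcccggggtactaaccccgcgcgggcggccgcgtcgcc
Tbx21, chr11:97115332-97115581, minus strand: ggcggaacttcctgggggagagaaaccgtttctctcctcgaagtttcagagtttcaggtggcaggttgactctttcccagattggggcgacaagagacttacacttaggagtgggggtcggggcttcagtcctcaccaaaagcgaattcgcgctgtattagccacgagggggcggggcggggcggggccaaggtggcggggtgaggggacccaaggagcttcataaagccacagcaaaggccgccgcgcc
Gata1, chrX:7967911-7968160, minus strand: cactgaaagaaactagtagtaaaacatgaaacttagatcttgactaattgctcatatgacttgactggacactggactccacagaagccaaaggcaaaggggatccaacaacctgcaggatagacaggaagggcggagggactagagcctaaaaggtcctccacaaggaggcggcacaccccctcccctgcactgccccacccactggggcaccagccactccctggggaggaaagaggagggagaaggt

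The distal Runx3 promoter held 2 RUNX motifs, side by side with 2 bases between them, and the proximal one held none. The second promoter of Zbtb7b was the only other window of the 9 genes with that motif, which occurred in 14.0% of all 32851 RefSeq promoters of this length. The letters TTCNNNGAA, a STAT5 motif present in 7.02% of promoters, were in none of the 11 windows. Neither were AGATAA for GATA factors, AGGTGT for T-box factors and AGGTCA for ROR factors, which occurred in 9.99%, 11.8% and 14.0% of promoters. GCGTG, the core bound by AHR, stood once in the Rora promoter and once in the second Runx1 promoter, against 28.2% of all promoters. These matches are descriptions of the letters and not binding sites.

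Il2ra counts followed the genotype labels. In the thymus Il2ra stood at 524.1 to 681.7 CPM (counts relative to library size, scaled by TMM) in WT and at 95.8 to 279.8 CPM in CD25 KO mice, with the highest KO values in mouse 2, at 279.8, and mouse 4, at 233.7. In the spleen it was 488 to 538.2 CPM in WT and 167.5 to 208 CPM in KO mice. These counts cover the whole gene, including exons outside the deleted part. Foxp3 was 502.6 ± 69.5 CPM in thymic WT and 297.1 ± 26.5 in thymic KO (SD, n = 5 each), and 330 ± 10.4 and 225.9 ± 15.8 in the spleen (n = 4 each). Cd4 was at least 391.3 CPM and Cd8a at most 28.5 CPM in every library. In thymic libraries 4 markers of immature thymocytes summed to 20.4 to 119.3 CPM in WT and 25.4 to 66.6 CPM in KO mice. The part of such cells in the thymic values was not tested. Libraries held 17239774 to 32639570 counts, so that 3 counts, the smallest level regarded as detectable, corresponded to 0.0949 to 0.163 CPM. The thymic and splenic libraries carry different dates in the deposited table, and tissue, age, mouse model and date changed together.

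A gene was called differentially expressed (DE) at a false discovery rate (FDR) below 0.01, where FDR is the Benjamini-Hochberg adjusted p of edgeR's quasi-likelihood test over all genes of a comparison. In the thymus 2 of the 9 factors were DE, Runx3 and Gata1, both lower in CD25 KO Tregs, against 2.99% of all 16986 genes tested lower and 3.17% higher. In the spleen 6 were DE. Tbx21, Gata3, Rora, Ahr and Runx3 were higher, against 5.90% of 17463 genes, and Gata1 was lower, against 3.55%. The 9 factors had a median log2 fold change of 0.04 in thymic and 0.41 in splenic Tregs, where those of all genes were -0.002 and -0.006. The factors were chosen with earlier results of these data known, so their counts and medians do not test an enrichment. Of all DE genes 51.5% were higher in thymic and 62.4% in splenic KO Tregs, and upper-quartile in place of TMM scaling made the thymic share 64.7%. Over the other alternatives the thymic share lay between 24.4% with the replicate block and 60.1% without WT mouse 1, with 38.6% without KO mice 2 and 4 and 38.2% without WT mouse 3. In bulk libraries fewer cells of a type and less RNA per cell cannot be told apart.

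**Figure D1:**
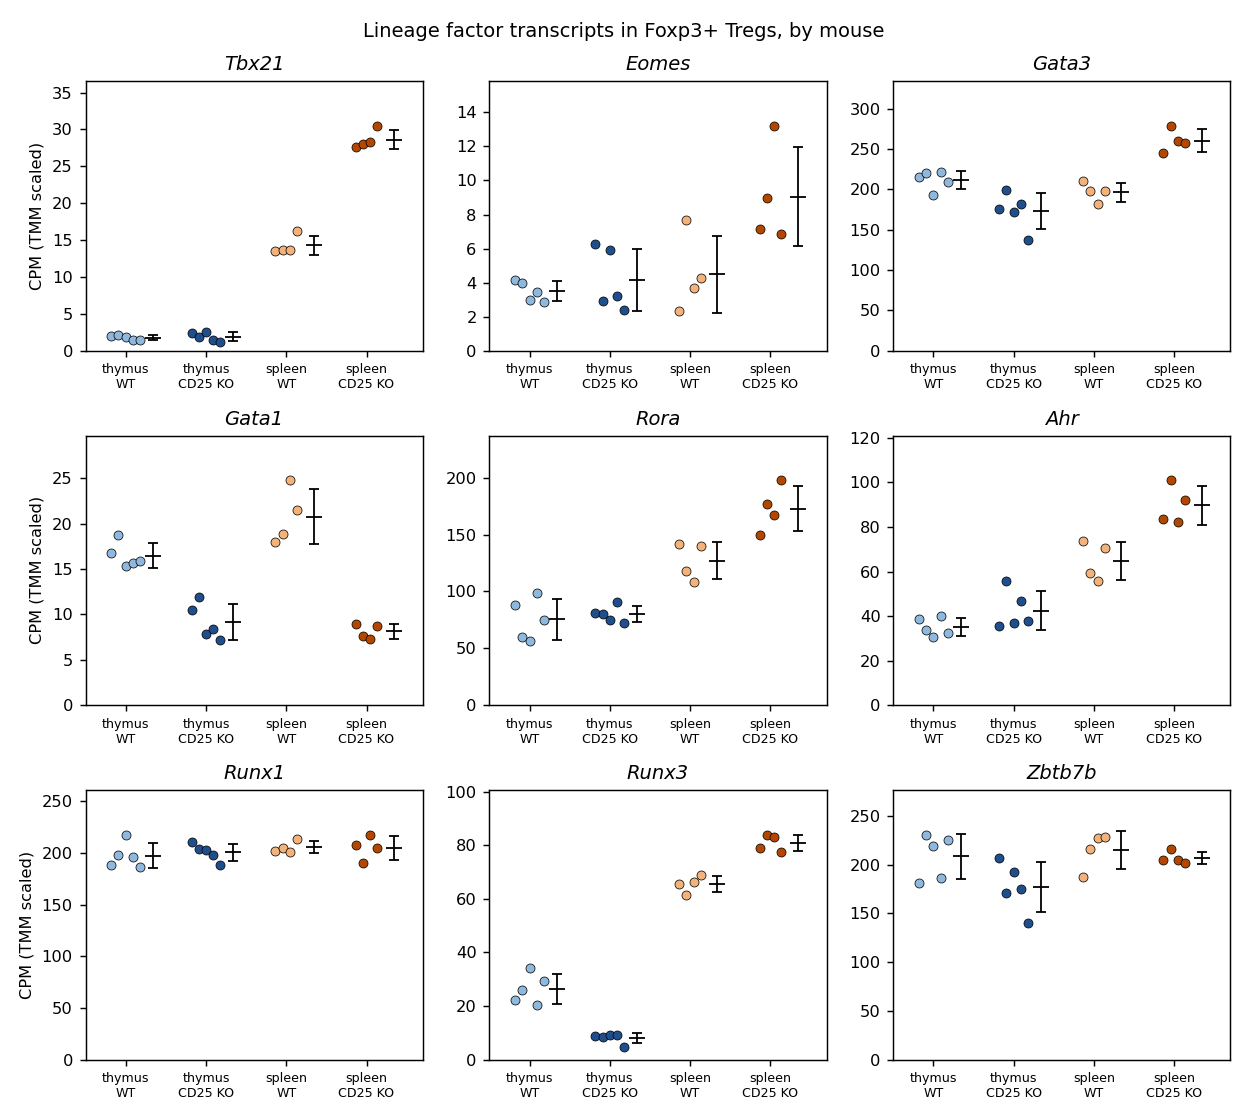
Each panel plots 1 gene in CPM scaled by TMM, with 1 point per mouse in the 4 groups and, beside the points, the mean with its SD (5 mice per thymic group, 4 per splenic group). Runx3 fell in thymic and rose in splenic CD25 KO Tregs, Gata1 was lower in CD25 KO mice of both tissues, and Runx1 stayed between 186.2 and 217.3 CPM in all 18 mice.

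Per kilobase of exon, the thymic WT level was highest for Gata3, at 53.2 ± 2.93 CPM per kb (SD, n = 5), followed by Zbtb7b at 37.3 ± 4.16 and Runx1 at 16.4 ± 1.01. Gata1, Rora, Ahr and Runx3 formed a middle group at 6.76 ± 0.567, 5.78 ± 1.37, 5.70 ± 0.677 and 5.29 ± 1.11 CPM per kb, whose neighbors lay within each other's spread. Eomes and Tbx21 were lowest, at 0.842 ± 0.139 and 0.716 ± 0.145. In splenic WT Tregs Gata3, at 49.4 ± 2.94 CPM per kb (n = 4), again exceeded Zbtb7b, at 38.4 ± 3.45, and Runx1, at 17.1 ± 0.482. Tbx21 stood 8-fold higher in splenic than in thymic WT Tregs (log2 difference 3.00, SE 0.16, edgeR FDR = 4.53e-12). Runx3, Ahr and Rora were also higher in the spleen, by 1.31, 0.88 and 0.75 on the log2 scale (edgeR FDR = 1.55e-07, 4.67e-06 and 7.7e-05). These 4 calls stand against 21.0% of 18686 genes higher and 19.5% lower in splenic WT Tregs, and the tissues differ in everything named above.

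Tbx21 doubled in splenic CD25 KO Tregs. Its level was 13.5, 13.6, 13.7 and 16.3 CPM in the 4 WT mice and 27.6, 28.0, 28.3 and 30.5 CPM in the 4 KO mice. The groups lay far apart, the lowest KO mouse standing well above the highest WT mouse. The difference was 2.01-fold (log2 1.00, SE 0.0775, 95% interval 0.85 to 1.16, edgeR FDR = 6.17e-07). In the thymus, the same gene was at 2.03, 2.21, 1.84, 1.42 and 1.41 CPM in WT and at 2.45, 1.89, 2.50, 1.49 and 1.16 CPM in KO mice, from 22 to 52 counts per library. These groups overlapped throughout (log2 difference 0.10, 95% interval -0.35 to 0.56, edgeR FDR = 0.776). Over the 4 groups, the 2 thymic groups were lowest, splenic WT followed and splenic KO was highest. The gene (GRCm38 chromosome 11, 97098071 to 97115331, minus strand) has no annotated exon overlap with another gene.

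Eomes was less certain. Splenic WT mice had 2.36, 7.65, 3.68 and 4.25 CPM, and splenic KO mice 7.15, 8.98, 13.2 and 6.87 CPM. WT mouse 2 exceeded 2 of the KO mice, so the groups overlapped, and the 2-fold difference of the fit did not pass the threshold (log2 1.00, SE 0.274, 95% interval 0.46 to 1.54, edgeR FDR = 0.0187). Without that mouse it was 1.40, with an edgeR FDR of 0.0012. In the thymus the means were 3.50 ± 0.579 CPM in WT and 4.16 ± 1.82 in KO mice (SD, n = 5 each), with KO mice 1 and 3 at 6.30 and 5.93 above all WT mice and the other 3 within the WT range or below it (log2 0.26, 95% interval -0.24 to 0.76, edgeR FDR = 0.487). Its exons (chromosome 9, 118478212 to 118486132, plus strand) share 118 bases with the antisense gene Gm33460.

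Of 12 tested genes of a Th1 list of 14, 7 rose and 1 fell in splenic CD25 KO Tregs, with a median log2 fold change of 0.49. Over all genes tested, 5.90% were higher and 3.55% lower in the spleen, and 3.17% and 2.99% in the thymus. The same shares apply to the counts of every list below, and the lists were chosen with earlier results of these data known. Ifng, the signature Th1 cytokine, rose 2.38-fold (log2 1.25, SE 0.156), from 2.67 ± 0.439 to 6.37 ± 0.902 CPM. Ccl5, a chemokine of effector T cells, rose 2.29-fold and Cxcr3, the chemokine receptor that T-bet induces, rose 1.78-fold, from 78.3 ± 2.70 to 139.2 ± 8.88 CPM (edgeR FDR = 4.54e-05, 1.71e-05 and 1.79e-07 for the 3 genes). Ifngr2, a chain of the interferon-γ receptor, fell by 0.44 on the log2 scale (edgeR FDR = 0.00067). In the thymus 1 of 12 tested genes rose and 2 fell. Ccl5 and Il18r1, an IL-18 receptor chain, were lower by factors of 4.63 and 1.66 (edgeR FDR = 0.00397 and 0.00209).

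Among 7 genes known as targets of T-box factors or close to them, 4 rose in the spleen and none fell. Gzmb, which encodes granzyme B, went from 4.49 ± 1.11 to 47.5 ± 8.32 CPM, a 10.6-fold rise (log2 3.41, SE 0.153, edgeR FDR = 1.52e-09). Gzma and Gzmk, further granzymes, went from 0.167 ± 0.0222 to 1.46 ± 0.928 CPM and from 0.364 ± 0.198 to 1.65 ± 0.719 CPM. Both passed the filter through the KO libraries, since WT libraries held only 4 to 5 counts of Gzma and 3 to 15 of Gzmk. Genes admitted in this way could hardly be called lower. Their splenic fold changes and FDR are therefore not given, and their part in the count of 4 carries no weight. In the thymus 2 of 6 tested genes fell, Klrg1 and Il2rb. The first passed the thymic filter through the WT libraries, so its part in this count carries no weight. Klrg1, an inhibitory receptor of effector cells, had 237 counts over the 5 WT libraries and 1 count over the 5 KO libraries, a ratio of 215 with an exact 95% counting interval of 38.2 to 8520 that leaves out the spread between mice. Il2rb, the receptor chain that IL-2 and IL-15 share, was 1.73-fold lower (edgeR FDR = 0.00201).

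Markers of other cells moved with Tbx21 in part. The summed level of 5 NK and innate lymphoid markers was 11.3 to 13.6 CPM in splenic WT and 33.8 to 49.6 CPM in splenic KO mice. Of the 5, 2 passed the filter, and both were DE: Nkg7, a granule protein that cytotoxic T cells also make, from 11.2 ± 1.26 to 34.7 ± 7.48 CPM, and Klrb1c, from 1.15 ± 1.00 to 4.27 ± 1.17 CPM. Splenic libraries held 10 to 67 counts of Klrb1c in WT and 80 to 160 in KO mice. Klrb1c needed the KO libraries to pass the filter, so its call carries no weight. Ncr1 and Klra8, which define NK cells more closely, were at 0 counts in all 8 splenic libraries. The 2 CD8 markers summed to 7.80 to 9.45 CPM in splenic WT and 8.33 to 10.8 CPM in KO mice, and neither was DE. Of 5 myeloid markers, 4 were tested in the spleen and 1 was DE: Lyz2, the lysozyme of macrophages and neutrophils, from 6.17 ± 2.34 to 12.6 ± 1.69 CPM (2.04-fold, edgeR FDR = 0.00132, groups not overlapping). The summed level of the 5 was 16.4 to 22.8 CPM in splenic WT and 21.6 to 28.6 CPM in splenic KO mice. The part of other cells in the Tbx21 and granzyme values was not tested.

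Gata3, the factor of Th2 cells, rose in splenic CD25 KO Tregs. Splenic WT mice had 209.7, 197.6, 181.2 and 197.4 CPM, and splenic KO mice 244.4, 278.4, 260.1 and 257.6 CPM. The groups did not overlap, and the gene was 1.32-fold higher in KO Tregs (log2 0.41, SE 0.0564, 95% interval 0.30 to 0.52, edgeR FDR = 0.000125). Thymic WT mice had 214.8, 219.7, 192.4, 221.4 and 209.2 CPM, and thymic KO mice 175.3, 199.2, 171.4, 182.2 and 137.4 CPM. KO mouse 2, with the highest residual Il2ra, exceeded the lowest WT mouse, and the lower KO level did not pass the threshold (log2 -0.27, SE 0.0849, edgeR FDR = 0.0373). Without KO mice 2 and 4 the log2 difference was -0.38, with an edgeR FDR of 0.00756. The difference of the effects between spleen and thymus was 0.69 on the log2 scale (SE 0.11, edgeR FDR = 0.000303). General T cell transcripts had a like pattern. Cd4 had log2 fold changes of 0.32 in the spleen and -0.25 in the thymus, and Cd3e of 0.24 and -0.43. Their tissue differences were 0.58 and 0.69 (edgeR FDR = 0.000173 and 9.91e-06). Of 7 Treg and CD4 markers, 4 were called in this direction and 0 in the other. Whether Gata3 moved apart from these genes was not tested. Its exons (chromosome 2, 9857078 to 9890034, minus strand) share 155 bases with the antisense gene Gm13256 and 77 bases with 9230102O04Rik on the same strand.

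Of 11 tested genes of a Th2 list of 13, 6 rose and 1 fell in splenic CD25 KO Tregs. Il10, an immunoregulatory cytokine that Tregs also make, rose 4.05-fold, from 3.15 ± 1.16 to 12.8 ± 2.83 CPM (edgeR FDR = 7.33e-06). Il4, the signature Th2 cytokine, rose 2.47-fold from 1.92 ± 0.738 CPM, and Maf, which activates Il4, rose 1.72-fold (edgeR FDR = 0.00104 and 1.14e-05). Il4ra, the receptor of IL-4, was lower in KO Tregs of both tissues, by 0.40 on the log2 scale in the spleen and 0.46 in the thymus (edgeR FDR = 0.00122 and 0.00213). In the thymus 3 of 9 tested genes fell and none rose. Ccr4, a receptor of Th2 cells and Tregs, fell by 1.56 on the log2 scale (edgeR FDR = 1.28e-05). Il1rl1, the receptor of IL-33, fell from 8.12 ± 3.74 to 0.306 ± 0.312 CPM. Thymic libraries held 120 to 321 counts of Il1rl1 in WT and 0 to 15 in KO mice. Il1rl1 passed the thymic filter through the WT libraries. Its thymic FDR is therefore not given, and its part in the count of 3 carries no weight.

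Gata1, the erythroid GATA factor, was lower in CD25 KO Tregs of both tissues. Thymic WT mice had 16.8, 18.8, 15.4, 15.7 and 15.8 CPM, and thymic KO mice 10.4, 11.9, 7.89, 8.42 and 7.19 CPM. Every KO mouse stood below every WT mouse, and the level was 1.78-fold lower (log2 -0.83, SE 0.131, 95% interval -1.09 to -0.57, edgeR FDR = 0.00241). Splenic WT mice had 17.97, 18.9, 24.75 and 21.5 CPM, and splenic KO mice 8.90, 7.64, 7.24 and 8.77 CPM. Here too the groups lay apart, with a 2.54-fold lower level in KO Tregs (log2 -1.35, SE 0.111, 95% interval -1.56 to -1.13, edgeR FDR = 9.29e-07). The effects differed by -0.51 between the tissues (SE 0.184, 95% interval -0.87 to -0.14), which did not pass the threshold (edgeR FDR = 0.0636).

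Gata1 is also a gene of red cell and megakaryocyte precursors, so their markers are given beside it. The summed level of 9 such markers overlapped between the genotypes, at 16.8 to 38.1 CPM in thymic WT and 12.3 to 51.3 CPM in thymic KO mice, and at 9.21 to 12.2 and 8.18 to 11.4 CPM in the spleen. Klf1, a factor of erythroid cells, had at most 9 counts in any library, and Pf4, a gene of megakaryocytes, at most 1. The gene lies on chromosome X (7959260 to 7978071, minus strand), 364015 bases from Foxp3, whose alleles differed between the thymic groups. Of 15 tested genes between them 2 were higher and 1 lower in thymic KO Tregs, with a median log2 fold change of -0.04, and of 16 tested in the spleen none was higher and 2 were lower, with a median of 0.04. Y-linked transcripts were found in 3 of 5 thymic WT, 4 of 5 thymic KO and 0 of 8 splenic libraries, and with sex as a term the thymic log2 fold change of Gata1 was -0.85 (edgeR FDR = 0.0037).

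Of 7 genes related to GATA factors or known as their partners, 5 were tested in each tissue. None was DE in the thymus, and Ldb1, an adaptor in GATA complexes, was 1.16-fold lower in splenic KO Tregs (edgeR FDR = 0.00812). The related genes Gata2 and Tal1 did not pass the filter in either tissue.

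Rora, which encodes the nuclear receptor RORα, stood at 141.4, 118.3, 108.5 and 139.9 CPM in splenic WT and at 150, 176.5, 167.5 and 197.6 CPM in splenic KO mice. The groups did not overlap, although WT mouse 1 came close to KO mouse 1, and the gene was 1.36-fold higher in KO Tregs (log2 0.45, SE 0.0893, 95% interval 0.27 to 0.62, edgeR FDR = 0.00247). Without WT mouse 2 or WT mouse 3 the edgeR FDR was 0.0118 or 0.0104, and with all 18 samples in 1 fit it was 0.0468. In the thymus it ranged from 56.5 to 98.7 CPM in WT and from 72.4 to 91.1 CPM in KO mice, all KO values lying inside the WT range (log2 0.10, 95% interval -0.18 to 0.37, edgeR FDR = 0.65). The gene spans 68653786 to 69388246 on the plus strand of chromosome 9 and shares 82 exonic bases with the antisense gene Gm15511.

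Of 8 Th17 genes tested in the spleen, from a list of 11, 1 rose and 2 fell. Batf, an AP-1 factor needed for several helper lineages, rose 1.72-fold, and Il6ra and Ccr6, an IL-6 receptor chain and a chemokine receptor, fell by 0.46 and 0.41 on the log2 scale (edgeR FDR = 6.07e-07, 4.98e-05 and 0.00428). None of 6 tested genes was DE in the thymus. Il17a, Il17f and Il22 did not pass the filter in either tissue.

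Ahr was at 73.55, 59.2, 55.8 and 70.8 CPM in splenic WT and at 83.4, 100.9, 82.3 and 92.2 CPM in splenic KO mice. The groups did not overlap, and the KO level was 1.39-fold higher (log2 0.47, SE 0.0873, 95% interval 0.30 to 0.64, edgeR FDR = 0.00143), which with all 18 samples in 1 fit was not DE (edgeR FDR = 0.0233). Thymic values overlapped, at 30.6 to 40.3 CPM in WT and 35.4 to 55.7 CPM in KO mice, with KO mice 2 and 4 highest (log2 0.29, 95% interval 0.04 to 0.55, edgeR FDR = 0.12). The effects of the tissues differed by 0.19 (95% interval -0.15 to 0.53, edgeR FDR = 0.471). Its exons (chromosome 12, 35497974 to 35535038, minus strand) overlap those of Gm48236 on the other strand.

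Gpr15, a homing receptor of colonic T cells that AHR induces, had 1.42 ± 0.38 CPM in thymic WT and 0.130 ± 0.0856 CPM in thymic KO mice. It rose 1.81-fold in splenic KO Tregs (edgeR FDR = 4.22e-05). Thymic libraries held 24 to 41 counts of Gpr15 in WT and 0 to 4 in KO mice, so the KO level was near the floor. Gpr15 passed the thymic filter through the WT libraries and could hardly be called higher there. Its thymic FDR is therefore not given. Itgae, the integrin chain CD103, and Hsp90ab1, a chaperone of AHR, were lower in thymic KO Tregs by factors of 2.60 and 1.36 (edgeR FDR = 0.00497 and 0.00241). These 3 were the DE genes among 7 tested in the thymus, where the part of Gpr15 in the count carries no weight. Gpr15 was the DE gene among 8 tested in the spleen, from a list of 11. Cyp1a1 and Cyp1b1, the classic AHR targets, did not pass the filter in either tissue.

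Follicular helper T cells have BCL6 as their lineage factor. Of 7 genes of these cells, 6 rose in splenic CD25 KO Tregs and none fell, with a median log2 fold change of 0.83. Il21, the cytokine of these cells, rose 2.89-fold, and Ascl2 and Tox2, factors that act in them, rose 2.73-fold and 2.10-fold (edgeR FDR = 3.93e-05, 0.00137 and 6.6e-07). In the thymus none of 6 tested genes was DE.

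**Figure D2:**
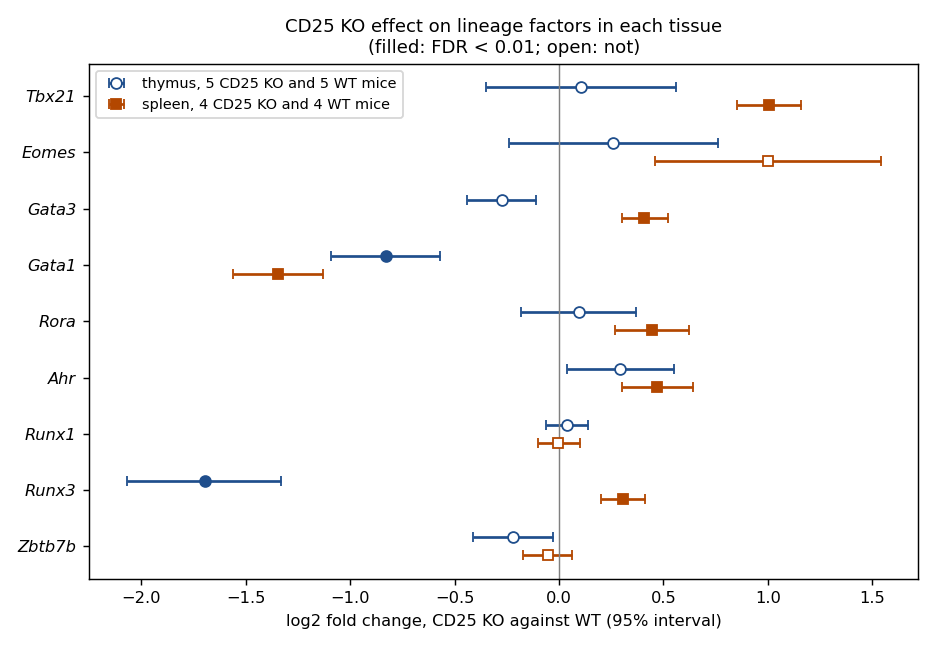
Points give the log2 fold change of CD25 KO against WT for the 9 factors, with the 95% interval as bars, in the thymus (circles) and the spleen (squares), filled where edgeR's FDR was below 0.01. Runx3 lies at -1.70 in the thymus and at 0.30 in the spleen, while Gata1 lies below 0 in both and the Runx1 intervals include 0 in both.

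Runx3 had the largest thymic change of the 9 genes and the opposite sign in the spleen. Thymic WT mice had 22.3, 25.8, 34.2, 20.4 and 29.45 CPM, and thymic KO mice 8.745, 8.62, 9.09, 9.27 and 4.57 CPM. The highest KO mouse stood below the lowest WT mouse, with KO mouse 5 lowest, and the level was 3.24-fold lower (log2 -1.70, SE 0.189, 95% interval -2.07 to -1.33, edgeR FDR = 0.000355). KO mice 2 and 4, with more residual Il2ra, did not stand apart from KO mice 1 and 3. Splenic WT mice had 65.4, 61.5, 66.4 and 69.0 CPM, and splenic KO mice 78.8, 83.8, 83.2 and 77.6 CPM. These groups did not overlap either, with a 1.23-fold higher level in KO Tregs (log2 0.30, SE 0.053, 95% interval 0.20 to 0.41, edgeR FDR = 0.000858). With all 18 samples in 1 fit the splenic log2 fold change was again 0.30 but was not DE (edgeR FDR = 0.217). The 4 groups did not overlap in any pair and followed the order thymic KO, thymic WT, splenic WT and splenic KO. The gene lies on chromosome 4, 135120652 to 135177990 on the plus strand, and shares no exonic base with the overlapping gene Gm16224.

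Runx1, which maturing T cells need and which binds with FOXP3 in Tregs, ranged from 186.2 to 217 CPM in thymic WT, 187.8 to 210.4 in thymic KO, 201.2 to 213.6 in splenic WT and 189.7 to 217.3 CPM in splenic KO mice. All groups overlapped, and the log2 fold change had a 95% interval of -0.06 to 0.14 for thymic and of -0.10 to 0.10 for splenic Tregs (edgeR FDR = 0.613 and 0.978). The gene spans 92601466 to 92826149 on the minus strand of chromosome 16 and shares 106 exonic bases with Gm26626.

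Zbtb7b, the CD4 lineage factor, was at 180.9, 230.5, 219.1, 186 and 225.8 CPM in thymic WT and at 207.3, 170.5, 192.5, 175.3 and 139.7 CPM in thymic KO mice. The groups overlapped, with KO mouse 5 lowest (log2 -0.22, 95% interval -0.41 to -0.03, edgeR FDR = 0.123). In the spleen it ranged from 187.1 to 228.6 CPM in WT and from 201.9 to 215.7 CPM in KO mice, the KO values all lying inside the WT range (log2 -0.05, 95% interval -0.17 to 0.06, edgeR FDR = 0.603). Its exons (chromosome 3, 89377644 to 89394776, minus strand) share 116 bases with the antisense gene Gm15417.

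Ratios within a library do not depend on how libraries are scaled, and 6 were tested by two-sided exact permutation tests with Benjamini-Hochberg adjustment over the 6. The smallest p such a test could give was 0.00794 with 5 mice and 0.0286 with 4 mice per group. The log2 ratio of Runx3 to Runx1 was -2.92 ± 0.263 in thymic WT and -4.68 ± 0.386 in thymic KO mice (SD, n = 5 each), so that they differed by -1.76 (exact p = 0.00794, adjusted 0.0238). In the spleen it was -1.65 ± 0.06 and -1.34 ± 0.107 (n = 4 each), a difference of 0.31 in the other direction (exact p = 0.0286, adjusted 0.0343). The ratio of Runx3 to Zbtb7b behaved alike, lower by 1.49 on the log2 scale in thymic KO mice, from -2.997 ± 0.205 to -4.49 ± 0.277, and higher by 0.35 in splenic KO mice, from -1.71 ± 0.133 to -1.35 ± 0.039, with the same p-values. Tbx21 to Gata3 rose by 0.60 in the spleen, from -3.79 ± 0.155 to -3.19 ± 0.099 (exact p = 0.0286, adjusted 0.0343), although both genes rose, and differed by 0.35 in the thymus, with overlapping groups (exact p = 0.151, adjusted 0.151).

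**Figure D3:**
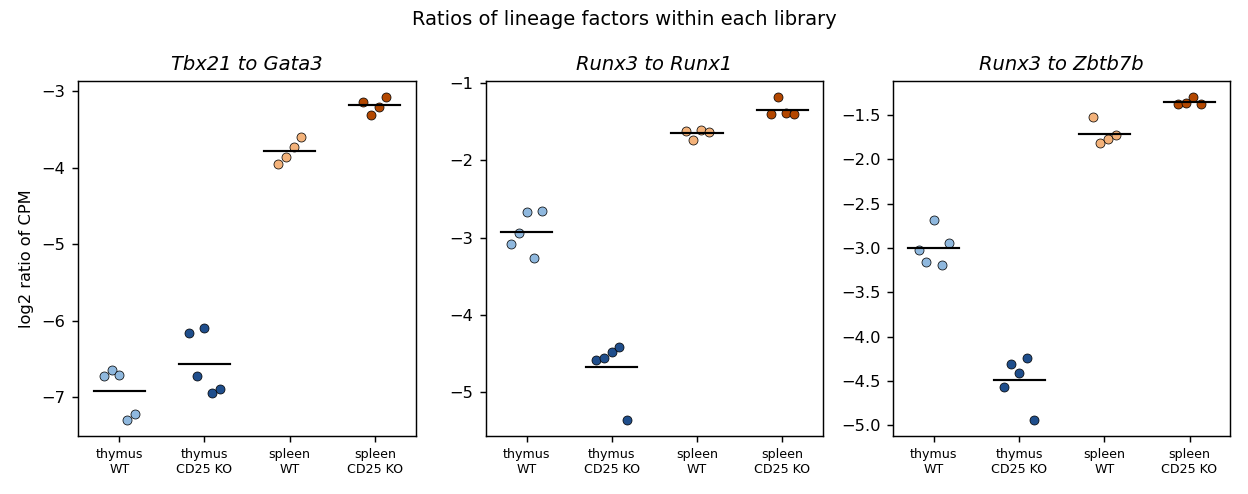
The vertical axis is the log2 ratio of the CPM of 2 factors in the same library, with 1 point per mouse and a line at the group mean. Thymic CD25 KO mice lie below all thymic WT mice for both Runx3 ratios, and splenic KO mice lie above all splenic WT mice in all 3 panels.

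Partners of RUNX factors included Cbfb, the shared subunit, with a log2 fold change of 0.01 for thymic and 0.11 for splenic Tregs (edgeR FDR = 0.936 and 0.38). Of 8 genes on that list, all tested, 1 fell in the thymus, and 1 rose and 1 fell in the spleen. Tle1, a corepressor that RUNX proteins recruit, was lower in both tissues, by 0.93 and 0.75 on the log2 scale, and Runx2, the third RUNX gene, rose 1.59-fold in the spleen (edgeR FDR = 0.0013, 0.000522 and 6.14e-05). Runx2 did not pass the threshold in the thymus (log2 -0.31, edgeR FDR = 0.356). Of 10 other genes that act in the choice between CD4 and CD8 lineages, 1 rose in thymic and 2 rose in splenic KO Tregs, and none fell. Tox, a factor of CD4 T cell development, rose 1.30-fold and 1.24-fold, and Tcf7 rose 1.18-fold in the spleen (edgeR FDR = 0.00577, 0.00084 and 0.00706).

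**Figure D4:**
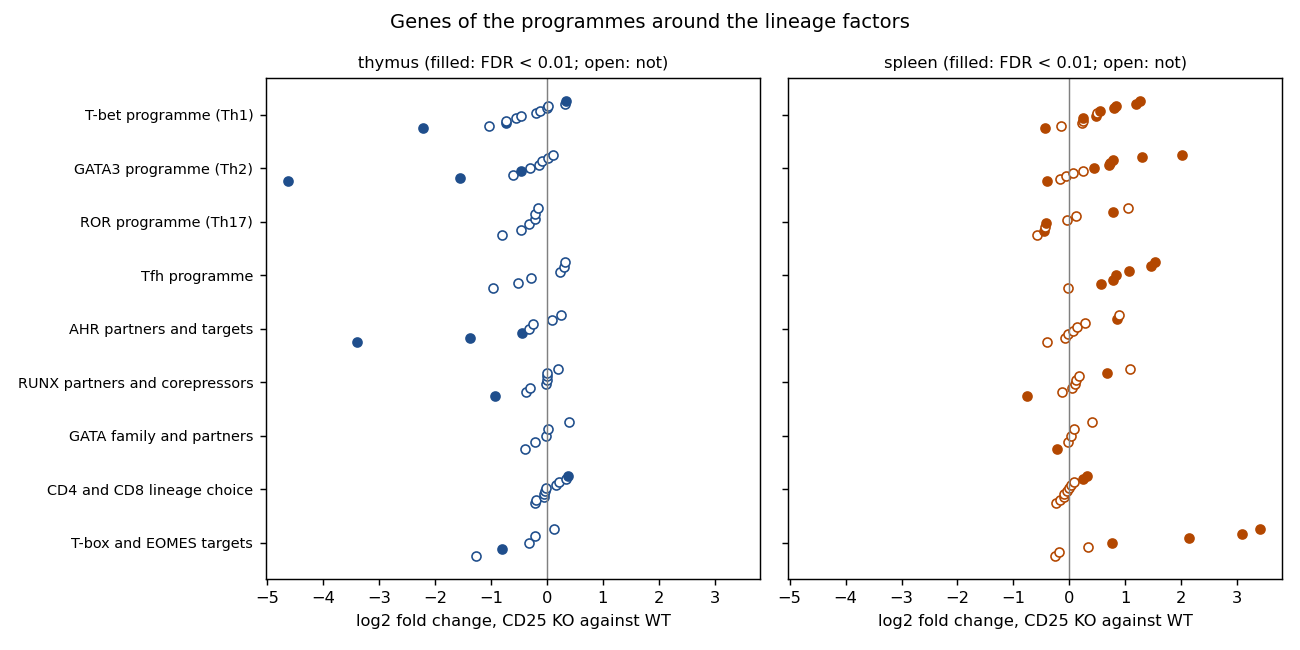
Each point is the log2 fold change of CD25 KO against WT for a gene of the 9 lists named on the left, in the thymus and the spleen, filled where edgeR's FDR was below 0.01. Thymic Klrg1, with 1 count in the KO libraries, is not drawn. Of the tested genes 2 rose and 11 fell in the thymus, and 28 rose and 6 fell in the spleen. Over all genes tested, 3.17% rose and 2.99% fell in the thymus, and 5.90% and 3.55% in the spleen. The 28 include Gzma and Gzmk, which passed the filter only through the KO libraries. The 11 include Klrg1, Gpr15 and Il1rl1, which passed the thymic filter only through the WT libraries.

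Across the 9 lists, 13 of 69 tested genes were DE in the thymus, 2 higher and 11 lower, and 34 of 76 were DE in the spleen, 28 higher and 6 lower. Over all genes tested, 3.17% were higher and 2.99% lower in the thymus, and 5.90% and 3.55% in the spleen. Because the lists were chosen with earlier results of these data known, these counts do not test an enrichment. The 28 include Gzma and Gzmk, which passed the filter only through the KO libraries. The 11 include Klrg1, Gpr15 and Il1rl1, which passed the thymic filter only through the WT libraries. The lists hold 88 genes, none of them in 2 lists.

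The CD25 KO effect differed between the tissues for 2 of the 9 factors, against 4.50% of 18686 genes with a higher and 2.49% with a lower value in the spleen than in the thymus. Of those genes 64.4% were in the first direction, and 47.9% after upper-quartile scaling. For Runx3 the splenic effect exceeded the thymic one by 2.01 on the log2 scale (SE 0.207, 95% interval 1.61 to 2.42, edgeR FDR = 2.87e-06), and for Gata3 the value is given above. Tbx21 came close to the threshold, with a difference of 0.92 (SE 0.231, 95% interval 0.46 to 1.37, edgeR FDR = 0.0105). For Eomes, Rora, Runx1 and Zbtb7b the differences were 0.76, 0.36, -0.03 and 0.18 (edgeR FDR = 0.234, 0.182, 0.831 and 0.367). Values that missed the threshold do not show that the effects were equal.

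Pearson's r of log2 CPM over the 18 mice was used to name the genes whose pattern was most like each factor, among 12933 genes with a mean log2 CPM of at least 1. The points share their tissue and genotype groups and no test was made. Runx3 was most like Ccr4 (r = 0.99, and 0.672 after group means were removed) and Gm2a (0.987 and 0.745). Tbx21 was most like Sec24d (0.99 and 0.813) and Nfatc1 (0.986 and 0.484). Gata1 was most like Lta (0.946 and 0.464) and Lfng (0.942 and 0.716), and Gata3 like Litaf (0.94 and 0.762) and Itga7 (0.938 and 0.772). Itgav was near both Rora (0.969 and 0.79) and Ahr (0.966 and 0.732), with Bmpr1a also near Rora (0.965) and Slc4a7 near Ahr (0.971). For Zbtb7b the nearest were Irf2bp1 (0.935) and Smarcd2 (0.909). Eomes and Runx1 had weaker nearest genes, Plek (0.81) and Slc2a6 (0.809) for Eomes and Crb2 (0.666) and Cep295nl (0.658) for Runx1.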

How the data were processed

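Libraries were made from total RNA of FACS-purified Tregs with ribosomal RNA depletion and sequenced as paired ends. The authors aligned reads to GRCm38 with STAR 2.5.0b, counted them per gene of GENCODE M13 with featureCounts 1.5.0 (strand setting not given in the sources used here) and deposited raw counts without normalization. If strand was not used, reads from a gene and an overlapping antisense gene were not separated. Symbols, coordinates and exon lengths came from GENCODE M21, and promoters from RefSeq (GRCm38.p6). Groups followed the sample labels. The members and gene lists were chosen with earlier results of these data known. Counts were filtered by filterByExpr, scaled by TMM and compared within each tissue by the quasi-likelihood test of edgeR 4.0.16 in R 4.3.3, with Benjamini-Hochberg adjustment. The tissues were compared in 1 fit of all 18 samples. Standard errors came from the fold change and the F statistic. The intervals of fold changes used a normal quantile with these errors, so they are somewhat narrower than the quasi-likelihood test implies. Ratios were compared by exact permutation tests in a design of 5 against 5 or 4 against 4. The study named DESeq2, which was run as an alternative (1.42.0). The procedure was tested on simulated data, where the test of the tissue difference recovered fewer of the changed genes than the tests within a tissue, so that it has limited power. Beside the factors, up to 3 DE genes of each list with the largest change in each direction and the 2 genes most like each factor are named; Cd4, Cd8a, Foxp3 and Il2ra are checks, and other list genes were chosen after their values were seen. Some genes of the lists are counted but not reported here by name. Alternatives comprised RLE and upper-quartile normalization, other filters, FDR below 0.05, removal of a GC trend (loess, span 0.3), all samples in 1 fit, the thymic mouse number as a block, leaving out each mouse or thymic KO mice 2 and 4, and, added after seeing the data, sex as a term in the thymus and the counts of list genes under each alternative. The numbers did not pair the thymic mice. Depth was 17239774 to 32639570 counts per library, and intervals of counts cover counting error only.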

Additional observations from a re-analysis of the deposited data

Results flagged for a closer look

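Of 168 groups of 4 or 5 mice, 19 held a mouse far from the others relative to the group's range. Chance gives about 1 in 20 for independent groups of continuous values. These groups share the same 18 mice, and a group with counts in only 1 mouse is always flagged, so the number is not read as an excess. Among the factors, splenic WT mouse 4 had the highest Tbx21 of its group, 16.27 CPM, below every KO mouse. Thymic KO mouse 5 had the lowest Runx3, 4.567 CPM, and the lowest log2 ratio of Runx3 to Runx1, -5.362, and splenic KO mouse 2 had the highest such ratio, -1.178. Thymic KO mouse 5 also stood apart for Il4ra (172.3 CPM), Il6ra (95.01 CPM) and Ccr6 (31.91 CPM), and without it thymic Runx3 had a log2 fold change of -1.55 (edgeR FDR = 9.68e-05).

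In the other thymic groups, WT mouse 4 stood apart for Il1rl1 (14.66 CPM), WT mouse 5 for Tle1 (10.88 CPM) and WT mouse 1 for Gzmk (0.2906 CPM). KO mice 3, 2 and 4 were the mice of their group with any count of Ascl2 (0.1633 CPM), Klrg1 (0.04607 CPM) and Gzmk (0.04501 CPM). In the spleen, WT mouse 1 stood apart for Il10 (4.88 CPM) and Maf (283.9 CPM), and WT mouse 4 for Il21 (2.481 CPM). KO mouse 4 stood apart for Runx2 (71.2 CPM), KO mouse 3 for Tcf7 (792.7 CPM) and KO mouse 2 for Il2rb (704.8 CPM).

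The CD25 KO effect differed between the tissues by the interaction test of edgeR for 18 of the 39 named genes, given as splenic minus thymic log2 fold change. Of all genes tested 4.50% were called higher and 2.49% lower by that test, but the list genes were named for a large change within a tissue, so their count is not a result. Gata3 differed by 0.694 and Runx3 by 2.014. Among Th1 genes Ccl5 differed by 3.41, Cxcr3 by 1.565, Il18r1 by 0.98 and Ifngr2 by -0.434. Among Th2 genes Il1rl1 differed by 5.349, Il10 by 3.456, Ccr4 by 2.017 and Maf by 0.937. Il10 entered that fit only through the splenic libraries, since it did not pass the filter in the thymus, with 6 to 15 counts in WT and 0 to 6 in KO libraries. Batf differed by 1.256, Tox2 by 1.607, Gpr15 by 4.258 and Itgae by 1.448. The sizes for Gpr15 and Il1rl1 are uncertain, since thymic KO libraries held only 0 to 4 and 0 to 15 counts of them. Gzmb differed by 4.699, Gzma by 3.422, Il2rb by 0.622 and Klrg1 by 7.904. The size for Gzma is uncertain too, since splenic WT libraries held only 4 to 5 counts of it. The value for Klrg1 is a fitted one that depends on the prior count, because thymic KO libraries held 1 count of Klrg1.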

How the results depend on the processing

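Recomputed values of single factors kept their direction and side of the threshold in 690 cases, turned direction in 9, passed the threshold anew in 16 and lost it in 5. Counts and ratios held in 169 cases, a count within 1.5 times being taken as held, while 3 went up and 6 went down or lost the threshold. Thymic Runx3 and Gata1 were DE under every alternative run. With all 18 samples in 1 fit, 3 factors were DE in the spleen, since Rora, Ahr and Runx3 had edgeR FDR of 0.0468, 0.0233 and 0.217. List genes called in the thymus were 21 by DESeq2, 24 at FDR below 0.05 and 23 with all samples in 1 fit, where the spleen had 22. Thymic Rora turned to -0.10 with the GC trend removed (-0.103) and to -0.094 with the replicate block as well. Leaving out each mouse gave ranges of -0.012 to 0.233 for thymic Tbx21, -0.031 to 0.031 for splenic Runx1, and, for splenic against thymic WT, -0.027 to 0.578 for Eomes and -0.026 to 0.105 for Zbtb7b, none of them DE. Splenic Runx3 to Zbtb7b ranged from 0.318 to 0.418, and without any 1 KO mouse its exact p was 0.0571. Gata3 was DE in the thymus at FDR below 0.05, with all samples in 1 fit (edgeR FDR = 0.00667) and without KO mice 2 and 4. Splenic Eomes was DE at FDR below 0.05 and without the filter (edgeR FDR = 3.35e-07). The fit without the filter used the same Eomes counts, whose groups overlapped, so its FDR is not further evidence of a rise. The tissue difference of Tbx21 was DE under RLE, DESeq2, no filter or at least 10 counts (FDR = 0.00963, 0.000172, 0.00705 and 0.00971). It was also DE at FDR below 0.05, and without thymic WT mouse 4 or 5 or KO mouse 1 or 3. Over all genes, thymic DE genes went from 1047 to 2763 by DESeq2, 3951 at FDR below 0.05, 2881 with all samples in 1 fit, 2008 without KO mice 2 and 4, 636 with sex as a term, and 371 to 1087 without 1 mouse, with 380, 401, 428, 406 and 371 without WT mouse 2, 3 or 5 or KO mouse 1 or 3. Splenic DE genes went from 1651 to 795 with all samples in 1 fit, 3001 at FDR below 0.05 and 1099 without WT mouse 3, and tissue differences from 1305 to 2188 by DESeq2, 3149 at FDR below 0.05, 2307 without thymic KO mice 2 and 4 and 817 without splenic KO mouse 2. The mouse numbers did not pair the thymic mice, with correlations of same-numbered deviations from -0.238 to 0.144, and with the replicate block 2 factors and 209 of all genes were DE, or 2 and 241 with the GC trend also removed. The cause of these shifts was not tested. Depth limits thymic Tbx21, with 22 to 52 counts per library.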
